A study of Mus musculus with 6 samples.

Results

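Retrocopies are gene copies made when the messenger RNA of a parent gene is reverse transcribed and inserted elsewhere in the genome. They carry the joined exons of the parent without its introns, often with a stretch of A left from the poly(A) tail. Most lack a promoter of their own and are annotated as pseudogenes, although some are transcribed. A read from a stretch that copy and parent share letter for letter fits both loci, so a short-read value of either gene depends on how such reads were assigned.

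Described here are 3 such copies with their parents in the mouse ovary: Gm13736 with Srp9, Gm5900 with Lamtor3 and Tpm3-rs7 with Tpm3. They are 6 of the 47205 genes in the table of expression values, found there by symbol, and all 6 reached a mean of 1 FPKM or more over the libraries (fragments per kilobase of gene, scaled to the library, a level corrected for gene length). The copies were picked because they had differed between knockout and wild-type libraries, or among the knockout libraries, in these same data. Their differences between the groups are therefore a description, and the calls of the fit across all genes, given once below, support nothing about them. Gm5900 reached the filter only through the cKO libraries, where it is high.

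RNA of whole ovaries taken 9 days post partum (dpp) was sequenced in 3 libraries of wild-type mice (WT) and in 3 of mice (cKO) with Srsf1, a splicing factor gene, knocked out in granulosa cells, which surround the oocyte. For the strain, the Cre driver and any allele shared by both groups no label was found, and nothing says that libraries of a group came from separate animals. P-values then measure only the spread among these libraries, which may be technical. Libraries held 16.8 to 18.7 M reads, and 1 read in a gene of 1 kb was worth 0.052 to 0.0581 FPKM. Srsf1 stood at 39.9, 49.6 and 46.3 FPKM in WT replicates 1, 2 and 3 and at 20.3, 26.9 and 21.4 FPKM in cKO replicates 1, 2 and 3, with no overlap. Markers of the granulosa cell and of the oocyte were present in every library, with summed levels of 653 to 857 FPKM over 10 granulosa genes and 2085 to 2478 FPKM over 12 oocyte genes. In whole tissue, fewer cells of a type and less RNA per cell cannot be told apart.

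The parents encode parts of unrelated cellular machines. Srp9 encodes a small subunit of the signal recognition particle, the RNA-protein complex that binds ribosomes making secreted and membrane proteins and brings them to the endoplasmic reticulum (ER). It forms the Alu domain of the particle together with the product of Srp14. Lamtor3, also known as MP1, encodes a subunit of Ragulator, the scaffold on the lysosome that holds the Rag GTPases and takes part in the activation of mTORC1 and in MEK and ERK signalling. Tpm3 encodes a tropomyosin, a coiled coil that lies along actin filaments and sets which proteins can bind them. The ovary at this age is rich in growing oocytes, which secrete the zona pellucida, and in dividing granulosa cells.

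The sequences of the copies show how closely each matches its parent in the compared bases, and hence which stretches there could be told apart. They were read from the annotated transcripts of GENCODE M21 (build GRCm38), matched to the table by symbol. The annotated Gm13736 transcript is 253 bases long and holds no difference from Srp9, matching positions 156 to 408 of the parent transcript and 253 of the 261 bases that code for the SRP9 protein. It is printed whole because every base of it is shared. Capitals mark the bases on either side of the 2 places where exons of the parent are joined, which lie in 1 exon in the copy.
Gm13736: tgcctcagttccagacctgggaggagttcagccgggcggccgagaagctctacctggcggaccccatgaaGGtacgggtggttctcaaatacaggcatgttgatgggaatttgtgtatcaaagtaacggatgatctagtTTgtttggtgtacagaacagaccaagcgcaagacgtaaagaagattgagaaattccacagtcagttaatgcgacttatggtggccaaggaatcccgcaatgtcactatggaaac

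The annotated Gm5900 transcript spans the whole coding sequence of Lamtor3, 375 bases from start to stop codon, with all 5 parental exon junctions inside the coding sequence joined. It differed from the parent at 2 bases, C111T and G336A (the parent's base, the position counted from 1 at the 5′ end of the copy's transcript, then the copy's base). These are the last positions of codons 37 and 112 and leave the encoded residue as it is, and the reading frame runs to the stop codon of the parent. In the stretch from position 99 to 348 of the copy the capitals mark these bases, the only ones in the annotated copy by which its reads differ from those of the parent.
Gm5900: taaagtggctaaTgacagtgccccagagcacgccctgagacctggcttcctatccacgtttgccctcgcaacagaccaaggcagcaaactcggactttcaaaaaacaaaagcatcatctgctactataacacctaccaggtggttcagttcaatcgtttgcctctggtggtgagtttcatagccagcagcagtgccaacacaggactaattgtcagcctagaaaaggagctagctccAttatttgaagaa
The stretches around each of them follow for copy and parent, with the differing base in capitals.
Gm5900, position 111: taaagtggctaaTgacagtgcccca
Lamtor3, same stretch: taaagtggctaaCgacagtgcccca
Gm5900, position 336: ggagctagctccAttatttgaagaa
Lamtor3, same stretch: ggagctagctccGttatttgaagaa

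Tpm3-rs7 is the longest of the copies. Its annotated transcript has 2147 bases, of which 2102 aligned to Tpm3 with 13 differences and 3 gaps (6 bases), an identity of 99.4%. It spans the 7 parental exon junctions in its reach and all 747 coding bases, and it ends in 41 unaligned bases, 82.9% of them A. In the coding part 3 bases differed. G140A keeps the residue, G166A and G195A change it, and none makes a stop codon. The table lists Tpm3-rs7 as a pseudogene. The stretches around the residue-changing bases are shown with the differing base in capitals.
Tpm3-rs7, position 166: agcgcctccagcAggaagtggaggg
Tpm3, same stretch: agcgcctccagcGggaagtggaggg
Tpm3-rs7, position 195: aggcgggcccggAagcaggctgaag
Tpm3, same stretch: aggcgggcccggGagcaggctgaag

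Whether a read from the compared bases could tell copy from parent depends on these letters and on the length of the read. Of all stretches of 100 bases in the annotated copy, 100% occurred unchanged in the parent for Gm13736, 49.3% for Gm5900 and 49.8% for Tpm3-rs7. At 150 bases these shares were 100%, 33.2% and 33.8%, and the longest run without a difference was 253, 224 and 623 bases. Seen from the parent transcripts compared, only 12.1% of the 100-base stretches of Srp9 and 11.4% of those of Lamtor3 occurred in the copy. Most of each of these transcripts lies outside it. For Tpm3 the share was 47.9%, of a transcript of 2230 bases where the table counts Tpm3 over 7703. The read length and the treatment of reads that fit several places were not given in the sources used here. The gene lengths in the table, 744 bases for Gm13736 and 1260 for Gm5900, also exceed the annotated transcripts compared here. The remainder of these copies and of Tpm3 was not analysed here.

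**Figure D1:**
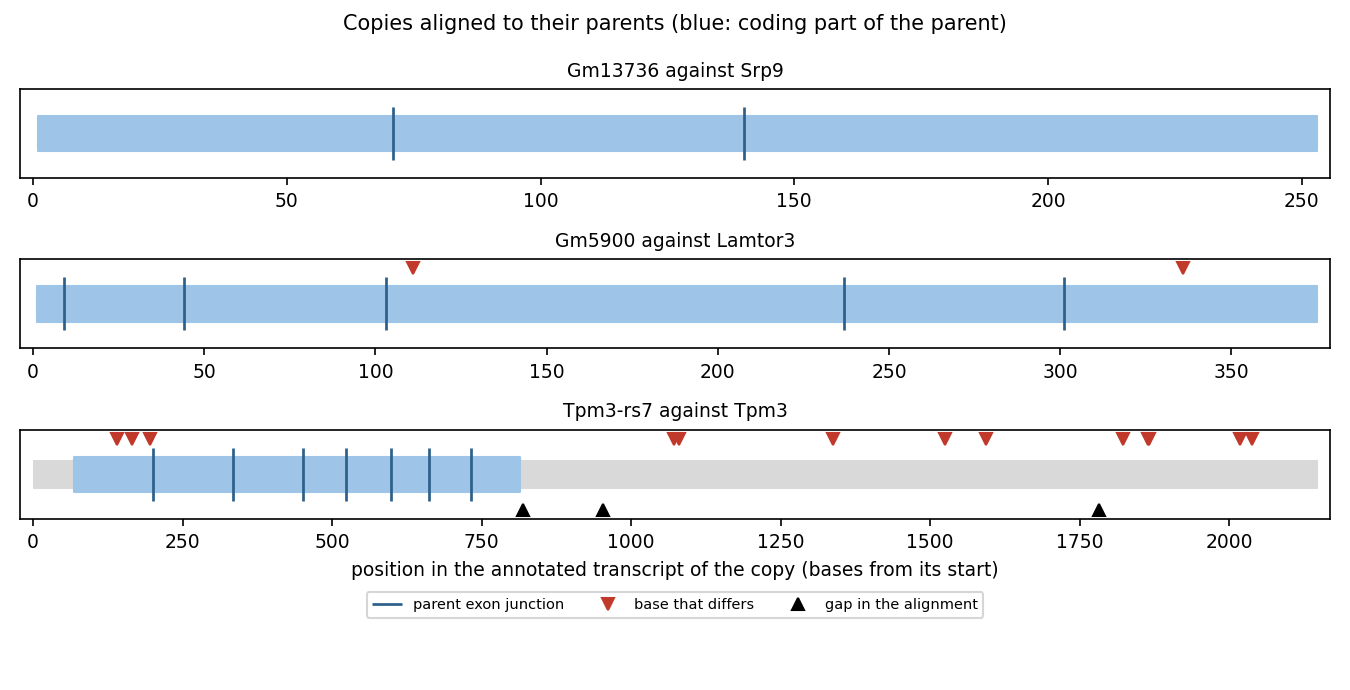
Each bar is the annotated transcript of a copy in bases from its start, with the coding part of the parent in blue, parental exon junctions as lines, differing bases as red triangles and alignment gaps as black triangles. Gm13736 carries no difference over 253 bases, Gm5900 carries 2 over 375, and Tpm3-rs7 carries 13 over 2102 aligned bases.

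Gm13736 (chromosome 2, 87356354 to 87357097, plus strand, in the build GRCm39 of the table) had its 3 lowest values in the cKO libraries. It stood at 28.8, 43.3 and 27.1 FPKM in WT replicates 1, 2 and 3, and at 4.69, 4.90 and 6.08 FPKM in the cKO replicates. The cKO values lie close together, and WT replicate 2 stands above the other WT libraries. Group means were 33.1 ± 8.91 (WT) and 5.22 ± 0.749 FPKM (cKO; SD, n = 3 each), 6.34-fold higher in WT, on 369 to 586 reads per WT library and 66 to 83 per cKO library. The log2 fold change (cKO minus WT, of FPKM + 1, a scale that understates changes of low genes) was -2.43 (SE 0.188).

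Its parent Srp9 (chromosome 1, 181952302 to 181959980, plus strand) had the opposite order. Srp9 stood at 31.5, 16.4 and 29.9 FPKM in WT and at 43.2, 48.7 and 49.9 FPKM in cKO, again without overlap. The WT library with the highest Gm13736, replicate 2, had the lowest Srp9. Means were 25.9 ± 8.27 and 47.3 ± 3.56 FPKM (SD, n = 3 each), 1.82-fold higher in cKO (log2 fold change 0.89, SE 0.234). In that WT library 586 reads were counted at the copy and 414 at the parent, so that the annotated pseudogene took most of the reads of the pair.

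Gm5900 (chromosome 7, 104598383 to 104599642, minus strand) was near the floor in WT and low but present in cKO. It had 6, 4 and 3 reads in WT replicates 1, 2 and 3, or 0.277, 0.175 and 0.129 FPKM. In cKO it had 63, 67 and 78 reads, or 2.64, 2.77 and 3.37 FPKM. The groups lie far apart, and the exact 95% Poisson limits, which cover counting error only, reach no higher than 13.1 reads in a WT library and no lower than 48.4 reads in a cKO library. Means were 0.193 ± 0.0756 and 2.93 ± 0.39 FPKM (SD, n = 3 each). Over the pooled reads, 13 in WT and 208 in cKO, the ratio of rates was 15.3 (counting interval 8.73 to 29.2). The interval leaves out the spread among libraries and, as Gm5900 was picked on this contrast, supports nothing about it. On the log2(FPKM + 1) scale the difference was 1.72 (SE 0.15), well below this ratio because of the added 1.

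Lamtor3, the parent of Gm5900 (chromosome 3, 137624316 to 137634523, plus strand), had no such difference. It stood at 28.5, 29.8 and 34.1 FPKM in WT and at 28.8, 30.4 and 29.7 FPKM in cKO, with overlapping groups. Means were 30.8 ± 2.94 and 29.6 ± 0.804 FPKM (SD, n = 3 each), with a log2 fold change of -0.05 (SE 0.0931). The copy thus had at most 78 reads in a library in which its parent had 688.

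Tpm3-rs7 (chromosome 14, 113552033 to 113554152, plus strand) divided the cKO libraries among themselves. It stood at 7.78, 8.98 and 9.06 FPKM in WT, a 1.17-fold range. In cKO it stood at 52.6, 5.16 and 51.2 FPKM, a 10.2-fold range. Replicates 1 and 3 were far above every WT library, while replicate 2 was below them all. The mean of 36.3 ± 27 FPKM in cKO against 8.61 ± 0.718 in WT (SD, n = 3 each) therefore describes no single library. The log2 fold change was 1.43 (SE 0.787) over all libraries and 2.46 without cKO replicate 2. Reads numbered 284, 346 and 355 in WT and 2108, 210 and 1990 in cKO, so that counting error is small beside this gap.

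Tpm3 (chromosome 3, 89979958 to 90008209, plus strand) was lower in cKO in all replicates, the one with low Tpm3-rs7 included. It stood at 31.4, 29.0 and 29.0 FPKM in WT and at 20.4, 21.8 and 20.5 FPKM in cKO, without overlap and with little spread. Means were 29.8 ± 1.39 and 20.9 ± 0.757 FPKM (SD, n = 3 each), 1.43-fold higher in WT (log2 fold change -0.49, SE 0.0801). Per base of the gene lengths in the table, 2120 for the copy and 7703 for Tpm3, the copy stood above its parent in cKO replicates 1 and 3. In the other 4 libraries it stood below. By reads it was below its parent in every library, with 2108 against 2972 in cKO replicate 1 and 1990 against 2901 in cKO replicate 3.

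**Figure D2:**
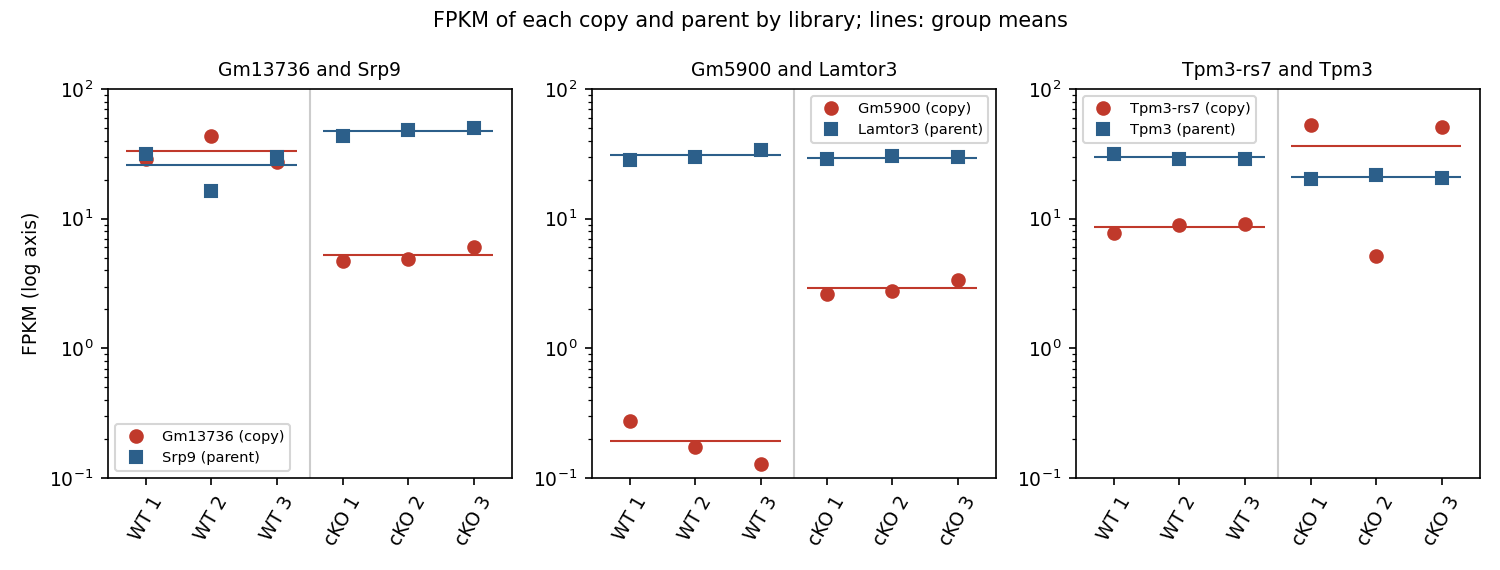
FPKM of each copy (red circles) and its parent (blue squares) in the 6 libraries, on a log axis, with lines at the group means of 3 libraries. Gm13736 is at 27.1 to 43.3 FPKM in WT and 4.69 to 6.08 in cKO, Gm5900 is at 0.129 to 0.277 in WT and 2.64 to 3.37 in cKO, and Tpm3-rs7 is at 52.6 and 51.2 in cKO replicates 1 and 3 but at 5.16 in replicate 2.

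Of the members, 2 of 6 passed the limma threshold of an adjusted p of 0.05 (Gm13736 and Gm5900), where 0.0204% of the 14714 genes tested did, 3 in all (0.0068% higher and 0.0136% lower in cKO). At an unadjusted limma p under 0.05 the count was 4 of 6, against 6.34% of all genes (3.64% higher and 2.7% lower). In the same 4 of 6 the groups did not overlap (Gm13736 and Tpm3 lower in cKO, Srp9 and Gm5900 higher), against 12.3% of all genes tested (6.37% higher and 5.89% lower). Since the members were chosen on this contrast, nothing follows from these counts. With a library left out the log2 fold changes stayed between 1.64 and 1.77 for Gm5900 and between -2.55 and -2.22 for Gm13736. The limma calls were less stable: Gm5900 missed the threshold with any library left out (adjusted p = 0.0981 to 0.362), and Gm13736 with any but WT replicate 2 left out (adjusted p = 0.0745 to 0.221). Both also missed it with the replicate number as a block (limma adjusted p = 0.451) and by limma-voom (adjusted p = 0.118 for Gm5900 and 0.109 for Gm13736). Gm5900 alone missed it with pseudocounts of 0.1 and 0.5 (limma adjusted p = 0.167 and 0.0542) and after quantile normalization (0.0563). Among the 535 annotated pseudogenes tested, 0.374% passed the threshold, which were Gm13736 and Gm5900 themselves and no other. Of these pseudogenes 12.5% had groups that did not overlap.

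The reads of copy and parent were also summed for each pair. On a common library scale, the sum over Gm13736 and Srp9 was 1114 ± 94.2 reads in WT and 1277 ± 98.6 in cKO (SD, n = 3 each), a ratio of 1.15 with overlapping groups. Within that sum Srp9 was higher in cKO by 545 reads and Gm13736 differed by -381 reads. The sum of FPKM, which weights each read by the length of the gene it was counted in, leans the other way, with a log2 ratio of -0.17 against 0.20 for the sum of reads. A read inside the 253 annotated bases of Gm13736 fits both genes of this pair, and how such reads were split was not given. Of the 100-base stretches of the Srp9 transcript, 12.1% occurred in that copy. The rest of the 744 bases counted for Gm13736 was not compared. The part of such reads in either gene's value was not tested.

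The other sums also overlapped between groups. Gm5900 and Lamtor3 together had 719.5 ± 66.7 reads in WT and 755.8 ± 22.4 in cKO (SD, n = 3 each), a ratio of 1.05. Gm5900 added 63.3 reads while Lamtor3 differed by -27.1. Tpm3-rs7 and Tpm3 together had 4554 ± 169 and 4374 ± 944 reads (SD, n = 3 each), a ratio of 0.96. Their sum was 4750, 4458 and 4456 reads in WT replicates 1, 2 and 3. In cKO it was 4938 reads in replicate 1 and 4899 in replicate 3, above every WT library. It was 3283 in cKO replicate 2, below every WT library, where Tpm3 was low and Tpm3-rs7 was not high. By FPKM the sum of this pair had a log2 ratio of 0.57 instead of -0.06, because Tpm3-rs7 is counted over 2120 bases and Tpm3 over 7703.

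**Figure D3:**
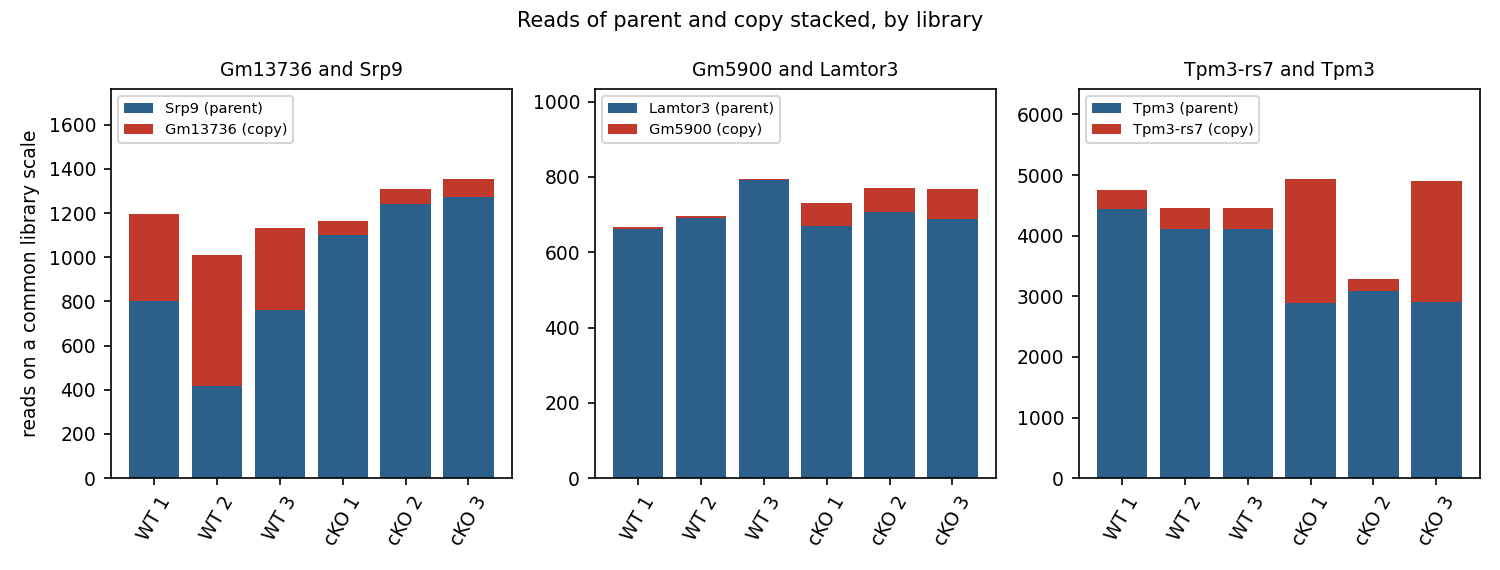
Stacked bars of the reads of parent (blue) and copy (red) in each library, on a common library scale that starts at 0. The stacks for Gm13736 and Srp9 reach 1011 to 1355 reads while the red part shrinks from WT to cKO, and the stack for Tpm3-rs7 and Tpm3 is lowest, at 3283 reads, in cKO replicate 2.

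As a share of the reads of its pair, Gm13736 held 32.9%, 58.6% and 32.7% in WT replicates 1, 2 and 3 and 5.50%, 5.11% and 6.13% in cKO. The WT spread far exceeds the counting error, whose 95% Wilson interval is at most 3.05 percentage points to either side. Gm5900 held 0.958%, 0.581% and 0.375% in WT and 8.39%, 8.32% and 10.2% in cKO, again without overlap. Tpm3-rs7 held 6.38%, 7.85% and 7.93% in WT. In cKO its share was 41.5% in replicate 1, 6.12% in replicate 2 and 40.7% in replicate 3, so that the low library lies below every WT library by share as well as by FPKM. Mean shares differed by -35.8, 8.33 and 22 percentage points for the pairs of Srp9, Lamtor3 and Tpm3. Without cKO replicate 2 the last of these was 33.7 points.

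**Figure D4:**
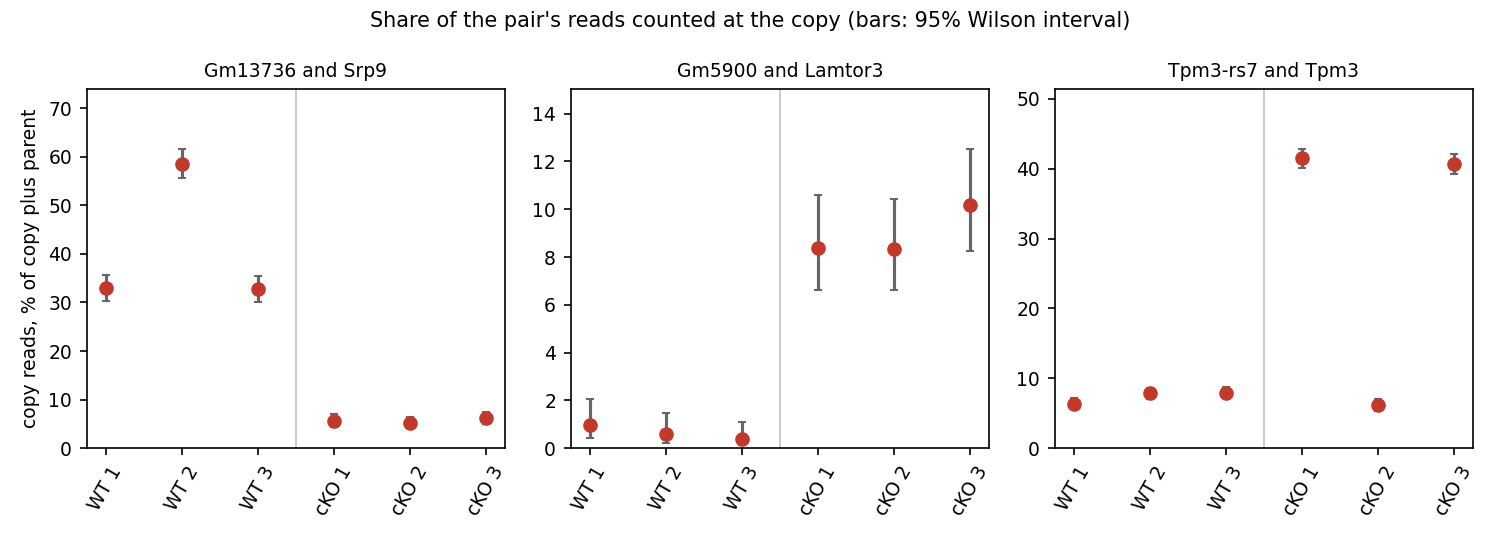
Reads counted at the copy as a percentage of the reads of copy plus parent, per library, with 95% Wilson intervals that cover counting error only. The share of Gm13736 is 32.7% to 58.6% in WT and 5.11% to 6.13% in cKO, that of Gm5900 is 0.375% to 0.958% in WT and 8.32% to 10.2% in cKO, and that of Tpm3-rs7 is 41.5% and 40.7% in cKO replicates 1 and 3 but 6.12% in replicate 2.

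Other copies of these parents were almost silent. For Tpm3 the table lists 7 more copies, among them Tpm3-rs2 and Tpm3-rs3, and each had 0 reads in every library, which allows up to 3 reads per library. The 5 of them with an annotated transcript were 90.4% to 92.5% identical to Tpm3, below the 99.4% of Tpm3-rs7, and at most 7.05% of their 50-base stretches occurred in Tpm3, against 69.4% for Tpm3-rs7. Lamtor3-ps, a further copy of Lamtor3, had 1, 2 and 3 reads in WT and 2, 9 and 2 in cKO. For Srp9 the table held no other entry that names it as the parent.

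The surroundings of the copies were mostly without reads. Of 36 genes within 300 kb of Gm13736, 35 had no read in any library and 26 were olfactory receptor genes. Within 300 kb of Gm5900 lie 29 genes, 20 of them without a read and 22 of them olfactory receptor genes. Tpm3-rs7 has no other gene of the table within that distance, and no gene of the table overlaps any of the copies. Of the genes around Gm5900, 3 within 300 kb reached the filter of 1 FPKM. The nearest, 34.8 kb away and without a symbol in the table, averaged 2.04 ± 0.920 FPKM in WT and 1.56 ± 0.798 in cKO (SD, n = 3 each), with overlapping groups. On the other side of Gm5900 the nearest gene past the filter, Fam160a2 at 421 kb, also overlapped between groups. It averaged 4.03 ± 0.368 FPKM in WT and 3.90 ± 0.146 in cKO (SD, n = 3 each). The gene past the filter nearest to Tpm3-rs7, 468 kb toward higher coordinates and without a symbol, averaged 0.993 ± 0.726 and 1.43 ± 0.144, with overlapping groups. Toward lower coordinates the nearest was Slitrk6 at 2559 kb, with 1.19 ± 0.163 and 1.14 ± 0.255. Olfr1033, the nearest to Gm13736 at 1481 kb, stood at 2.37, 2.74 and 4.25 FPKM in WT and at 0.0108, 3.16 and 2.50 in cKO, low in a single cKO library.

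The genes whose profile over the 6 libraries lay closest to that of a copy were found by the root mean square (RMS) difference of centred log2(FPKM + 1). For Gm13736, whose own RMS deviation was 1.24, they were Hsd3b1 (difference 0.39), Jsrp1 (0.48) and Gm25014 (0.51). Gm25014, a pseudogene, rests on 3, 6 and 3 reads in WT and 0, 0 and 1 in cKO and reached the filter only through WT. Hsd3b1, a steroidogenic enzyme, stood at 115, 181 and 121 FPKM in WT and 39.3, 23.3 and 51.6 in cKO, and like Gm13736 it was highest in WT replicate 2. Beside these, the summed level of the 10 granulosa markers was 761 to 857 FPKM in WT and 653 to 755 in cKO. Their median log2 fold change was -0.40, with 8 genes below 0 and 2 above (Inhbb at 0.50 and Amhr2 at 0.08). The part of granulosa cell number in the values of Gm13736 was not tested.

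For Gm5900, with an own RMS deviation of 0.86, the closest profiles were those of Gm35867 (0.22), AF357425 (0.30) and Fcgr2b (0.33). Gm35867, a long non-coding RNA gene, had 0 reads in the 3 WT libraries and stood at 2.70, 1.52 and 1.91 FPKM in cKO, on 35, 20 and 24 reads. AF357425, listed as a small nucleolar RNA, had 0 reads in WT and 4, 2 and 2 in cKO. Both reached the filter only through cKO. Fcgr2b, an inhibitory Fc receptor of leukocytes, stood at 4.87, 2.99 and 4.81 FPKM in WT and 14.0, 9.41 and 11.6 in cKO, a narrower range than that of the copy.

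For Tpm3-rs7, with an own RMS deviation of 1.26, they were H2-Q4 (0.40), Rsad2 (0.44) and Fcgr4 (0.44), genes of antigen presentation, the interferon response and leukocytes. H2-Q4 stood at 14.7, 14.9 and 10.5 FPKM in WT and at 130, 11.7 and 60.2 FPKM in cKO. Rsad2 stood at 0.598, 0.523 and 0.272 FPKM in WT and at 13.2, 0.275 and 4.55 in cKO. Rsad2 and Fcgr4, the latter with 1, 0 and 4 reads in WT and 132, 0 and 48 in cKO, reached the filter only through cKO. Like the copy, H2-Q4 and Rsad2 were above every WT library in cKO replicates 1 and 3 and not in replicate 2. There both lay within their WT range, where Tpm3-rs7 lay below its own, and their 2 high libraries differed from each other more than those of Tpm3-rs7, at 52.6 and 51.2 FPKM.

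Marker lists also differed among the cKO libraries, though not all in the order of Tpm3-rs7. The summed level of 10 leukocyte markers was 33.1 to 56.6 FPKM in WT and 238, 81.7 and 130 FPKM in cKO replicates 1, 2 and 3, with all 10 higher on average in cKO. Here replicate 1 stood highest and replicate 2 lowest of the cKO libraries, with replicate 3 nearer to replicate 2. The sum of 10 interferon response genes was 97.9 to 128 FPKM in WT and 683, 132 and 181 FPKM in cKO, in the same order. Outside cKO replicate 1 most of this sum was Bst2, at 77.0 to 106 FPKM in WT and 310, 94.9 and 106 in cKO. The mean log2(FPKM + 1) of the 10 genes relative to WT was 3.45, 0.454 and 1.53 in cKO. In WT libraries it was -0.117 to 0.073. The 7 smooth muscle markers, a cell type in which tropomyosins are abundant, had sums of 112 to 178 FPKM in WT and 75, 184 and 83.5 FPKM in cKO, low where Tpm3-rs7 was high. Of the other lists, 8 of 8 surface epithelium markers were higher on average in cKO (median log2 fold change 0.60), as were 6 of 6 endothelial markers (0.15) and 5 of 5 tested erythroid markers (0.30), while oocyte markers had a median of -0.05. The erythroid sum was 190, 182 and 333 FPKM in WT and 157, 240 and 572 FPKM in cKO replicates 1, 2 and 3. By this sum cKO replicate 1 lay below every WT library and replicate 3 stood far above the others. No gene of these lists was at 0 in all libraries. The part of these cells in the values of Tpm3-rs7 and Gm5900 was not tested.

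The genes that work with each parent were read from lists chosen by function, with parents and copies left out. In none of the 7 lists did a gene pass the limma threshold in either direction. As only 0.0204% of all genes tested did, nothing follows from this. The groups did not overlap in 2 genes of the ER translocon list (Tram1 and Sec61a1) and 1 of the Ragulator list (Lamtor5), higher in cKO. They also did not overlap in 1 gene of the mTORC1 list (Mlst8), lower in cKO, and in no gene of the other lists. Of all genes tested 12.3% had groups that did not overlap. Over all 14714 genes tested, the middle range (lower to upper quartile) of log2 fold changes was -0.11 to 0.12 around a median near 0.

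For Srp9, 8 genes of the signal recognition particle and its receptor were tested, with a median of 0.05, 5 above and 3 below 0 (smallest limma adjusted p = 0.831). Srp14, the partner of Srp9 in the Alu domain, averaged 52.6 ± 5.11 FPKM in WT and 59.4 ± 9.74 in cKO (SD, n = 3 each), and Srp54c, a signal sequence binding subunit, 5.56 ± 0.854 and 4.93 ± 0.767. The receptor subunit Srprb averaged 21.0 ± 2.78 and 23.6 ± 2.30. All of these overlapped between groups, unlike Srp9 itself. Of 16 genes of the ER translocon and signal peptidase, which receive the particle's cargo, 13 were above 0 (median 0.09, smallest limma adjusted p = 0.771). Tram1, a translocating chain protein, stood at 47.9 ± 3.56 and 57.7 ± 5.42 FPKM, and Sec61g, a channel subunit, at 25.3 ± 5.97 and 34.0 ± 3.20.

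For Lamtor3, 8 of 12 genes of Ragulator and the Rag GTPases were above 0 (median 0.08, smallest limma adjusted p = 0.773). Lamtor5, another Ragulator subunit, averaged 33.9 ± 3.30 FPKM in WT and 41.5 ± 4.89 in cKO (SD, n = 3 each), and the GTPase Rragd averaged 4.75 ± 0.615 and 6.44 ± 1.78. Of 9 genes of mTORC1 and its regulators, 8 were below 0 (median -0.14, smallest limma adjusted p = 0.801). With a library left out this median was between -0.25 and -0.03, nearest to 0 without cKO replicate 2. Mlst8, a core subunit, stood at 6.30 ± 0.147 and 5.15 ± 1.04 FPKM and the scaffold Rptor at 11.9 ± 1.09 and 10.6 ± 2.29. The 4 MEK and ERK kinases tested had a median of 0.10, with 3 above 0 (smallest limma adjusted p = 0.831). Mapk3, which encodes ERK1, stood at 123 ± 9.48 and 136 ± 11.6 FPKM.

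For Tpm3, 6 of 10 genes in the list of tropomyosins and tropomodulins were high enough to be tested, with a median of -0.04, 2 above and 4 below 0 (smallest limma adjusted p = 0.854). The other tropomyosin genes overlapped between the groups, with Tpm1 at 71.6 ± 11.3 FPKM in WT and 75.6 ± 11.8 in cKO, Tpm4 at 141 ± 26.7 and 147 ± 19.9, and Tpm2 at 16.1 ± 3.42 and 15.4 ± 7.57 (SD, n = 3 each). Actins, caldesmon and calponins, the filament and its regulators, had a median of -0.04 over 8 tested genes (smallest limma adjusted p = 0.834). The smooth muscle actin Actg2 stood at 24.9 ± 16.8 and 15.4 ± 17.7 FPKM and the ubiquitous actin Actb at 485 ± 33.3 and 541 ± 61.6. The log2 fold change was -0.49 at Tpm3, and 0.08, 0.07 and -0.14 at Tpm1, Tpm4 and Tpm2.

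**Figure D5:**
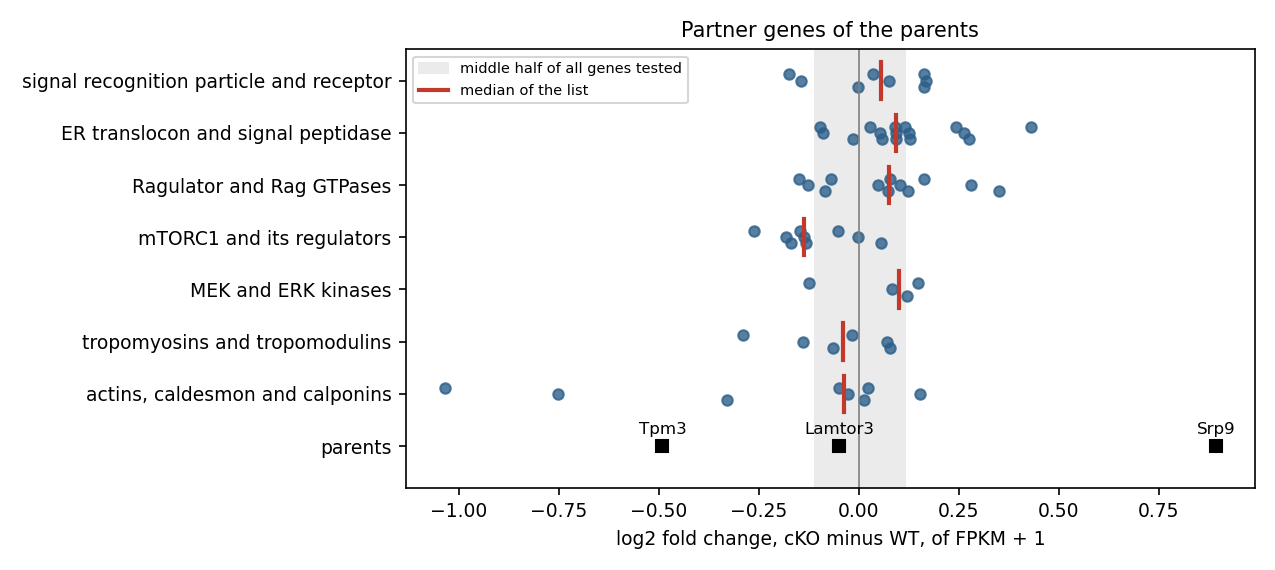
Log2 fold change (cKO minus WT, of FPKM + 1) of each tested gene that works with a parent, by list, with the median as a red line, the parents as black squares and the lower to upper quartile of all genes tested in grey. Srp9 at 0.89 and Tpm3 at -0.49 lie outside the grey band of -0.11 to 0.12, Lamtor3 at -0.05 lies inside it, and the medians of the lists lie between -0.14 and 0.10.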

How the data were processed

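The data are RNA sequencing of 6 libraries of whole ovary, 3 WT and 3 cKO, grouped by their labels. The authors deposited a single table of FPKM values per gene. The submitters' processing notes name HISAT2 2.0.5 with the builds mm10 and GRCm39. The chromosome accessions of the table are those of GRCm39. The counter, its annotation, the strandedness and the handling of reads that fit several places were not given in the sources used here.

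Multiplied by gene length, the deposited FPKM of each library were whole multiples of 1 step (within 0.01 for all values), which gave back whole reads. Rows without a symbol (872) held 0.481% to 0.715% of the reads. Sums of copy and parent use these reads on the library scale of the table. cKO was compared with WT by limma 3.58.1 in R 4.3.3 on log2(FPKM + 1), two-sided with a trend, over the 14714 genes whose mean reached 1 FPKM. Benjamini-Hochberg adjustment ran over all of them, with a threshold of 0.05. The fit was tested on simulated data. Copies and parents were aligned from the annotated transcripts of GENCODE M21 (GRCm38), matched by symbol for all 6.

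Members and lists were chosen with earlier results of these data known. Besides the members and Srsf1, named genes are up to 4 of each partner list with the smallest p, the nearest tested genes to each copy, the 3 closest profiles and up to 3 other copies of each parent. Of these, the text describes a selection. Alternatives were other pseudocounts, filters, scalings, priors and library weights, a replicate block, limma-voom and leaving out each library.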

Additional observations from a re-analysis of the deposited data

How the results depend on the processing

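The fit called 3 genes (Gm5900, Gm13736 and Jsrp1). It called 21 with no filter on low values, with 0 of the 3 among them, and 5 with library weights. It called 0 with the replicate block (884 at an unadjusted p under 0.05) and 0 by limma-voom on the recovered reads (907), an alternative chosen after seeing the data, against 933 unadjusted in the limma fit without the block. The other filters, pseudocounts, scalings and priors gave 2 or 3. All with 2 had lost Gm5900, which missed the threshold with pseudocounts of 0.1 and 0.5 and quantile normalization and was not tested at a mean FPKM of at least 5. Leaving out a library gave 0 to 2 calls. Of these, Gm13736 stayed past the threshold only where WT replicate 2 was the one left out (limma adjusted p = 0.0446), Gm5900 lost its call without any one library (adjusted p = 0.0981 to 0.362), and Tpm3-rs7 was called only without cKO replicate 2 (0.00307). Same-numbered libraries deviated together with r of 0.181, -0.0804 and -0.057, and different-numbered ones with r between -0.23 and 0.232. Deviations of 3 libraries from their mean are tied to each other. These values therefore cannot decide whether the numbers pair libraries.

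Log2 fold changes of Gm13736, Srp9, Gm5900, Tpm3-rs7 and Tpm3 kept their sign in all 12 alternatives, and that of Lamtor3 in 11. The value of Gm5900 was 3.39 with a pseudocount of 0.1, 2.31 with 0.5 and 3.83 by limma-voom. By FPKM, the log2 ratio of the sum was -0.17 for Gm13736 and Srp9 and 0.57 for Tpm3-rs7 and Tpm3, the latter between -0.15 and 0.11 by reads with a library left out. The Ragulator median was 0.000351 to 0.0934 and the MEK and ERK median 0.0484 to 0.146 with a library left out, and the latter 0.0517 after quantile normalization. The tests of edgeR and DESeq2 were not run, since the deposited unit is FPKM. The cause of these shifts was not tested. Depth limits Gm5900 most, with 3 to 6 reads per WT library.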

Other observations

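Gm4887, another annotated pseudogene near Gm5900 (chromosome 7, 104470364 to 104472965, plus strand, GRCm39), was named after its values were seen. It had 4, 0 and 156 reads in WT replicates 1, 2 and 3 and 1, 334 and 270 reads in cKO. Its high and low libraries fall in both groups, unlike those of Gm5900. It reached the filter of 1 FPKM. Olfr1033, the nearest named tested gene to Gm13736, had 400, 488 and 768 reads in WT and 2, 595 and 448 in cKO, so that a single cKO library had almost none.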
